A study of Rattus norvegicus with 7 samples.

Results

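Perineuronal nets and the looser matrix between brain cells are built around hyaluronan, a long sugar chain that carries no protein core. The 10 genes described here encode its main partners in brain. They are 4 lecticans, the chondroitin sulfate proteoglycans aggrecan (Acan), brevican (Bcan), neurocan (Ncan) and versican (Vcan), 3 link proteins (Hapln1, Hapln2 and Hapln4), 2 tenascins (Tnr and Tnc) and the hyaluronan synthase Has2. They were taken by symbol, as a set named for its function and not for its levels, and all 10 were found among the 15805 symbols present in both tables of the series. Where a symbol had several loci, the locus with the highest mean was used. Per symbol, 7 of the 10 averaged 1 FPKM or more in hippocampus or hypothalamus and were compared between the tissues. Ncan, Hapln4 and Has2 did not.

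A lectican binds hyaluronan with one end and tenascins with the other, and a link protein clamps the lectican onto the hyaluronan chain. Condensed around the cell bodies of certain neurons, above all fast-spiking interneurons, this lattice forms the perineuronal net, which limits plasticity in the adult brain. Other forms of it surround nodes of Ranvier and fill the space between cells.

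Libraries were made from hippocampus (4) and hypothalamus (3) of male Sprague Dawley rats. The animals were 2 months old when assigned to a diet rich in omega-3 lipid, docosahexaenoic acid (DHA) among it, which they ate for 6 weeks before decapitation. All 7 libraries share strain, sex and DHA diet, and libraries of chow-fed rats were not analysed here, so no value below is an effect of DHA. The study asked how DHA acts on transcripts and DNA methylation in these regions, and with these libraries only replicates and tissues can be compared. Replicates are separate libraries of 1 tissue, so their spread may be technical. The labels say neither whether RNA of several rats was pooled nor whether equal replicate numbers of the 2 tissues belong to 1 rat.

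Values are FPKM, fragment counts divided by transcript length and by the size of the library, so levels of different genes can be set beside each other. Summed FPKM ran from 370020 to 391349 over the hippocampus libraries and from 443335 to 471484 over the hypothalamus libraries. Between tissues, each library was rescaled to the same sum over the shared symbols, and differences are given as hippocampus minus hypothalamus on the log2(value + 1) scale, which understates the change of low genes. A gene was called higher in a tissue when all its libraries lay above all those of the other tissue and the difference was at least 2-fold. Each tissue has its own table, so tissue and table cannot be told apart and no p-value is given. The labelled tissues were borne out by their markers. Of 7 markers of hippocampal neurons, 6 were compared and all 6 were called higher in hippocampus, while Fibcd1 was listed at 0 in every library, and all 9 markers of hypothalamic neurons were called higher in hypothalamus. Choroid plexus markers, which mark tissue of the ventricles, ranged from 35.2 to 5951 FPKM in sum over the hippocampus libraries and from 14.8 to 53.0 over the hypothalamus libraries. Replicate 1 stood apart from the other libraries of its tissue in the spacing of its low values, and results of the 10 genes that turn on it are given without it as well.

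Before the values, the start regions of the 5 genes on which the results turn are shown. Hapln1, Tnr and Tnc are the members called between the tissues. Bcan and Hapln2, the most abundant members by the loci used, are direct neighbours in the genome. Each line is 300 bases from RefSeq (build GRCr8), 250 before and 50 after the annotated start, on the gene's strand. Capitals mark TATAAA or TATATA, the letters of a TATA box, and ACAAAG or ACAATG, core letters that SOX factors bind, on either strand.
Hapln1, chr2:22366717-22367016, plus strand: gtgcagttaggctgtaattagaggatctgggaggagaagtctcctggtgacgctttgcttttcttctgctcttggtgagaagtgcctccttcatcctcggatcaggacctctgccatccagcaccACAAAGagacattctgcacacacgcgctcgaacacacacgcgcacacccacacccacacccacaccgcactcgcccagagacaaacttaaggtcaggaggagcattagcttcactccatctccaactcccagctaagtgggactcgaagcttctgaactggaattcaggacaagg
Tnr, chr13:74624776-74625075, plus strand: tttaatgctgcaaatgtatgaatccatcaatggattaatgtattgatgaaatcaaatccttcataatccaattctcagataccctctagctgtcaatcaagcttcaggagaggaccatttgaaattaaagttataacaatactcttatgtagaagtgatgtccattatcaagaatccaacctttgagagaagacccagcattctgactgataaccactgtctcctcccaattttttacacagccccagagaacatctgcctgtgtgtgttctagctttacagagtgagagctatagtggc
Tnc, chr5:82476082-82476381, minus strand: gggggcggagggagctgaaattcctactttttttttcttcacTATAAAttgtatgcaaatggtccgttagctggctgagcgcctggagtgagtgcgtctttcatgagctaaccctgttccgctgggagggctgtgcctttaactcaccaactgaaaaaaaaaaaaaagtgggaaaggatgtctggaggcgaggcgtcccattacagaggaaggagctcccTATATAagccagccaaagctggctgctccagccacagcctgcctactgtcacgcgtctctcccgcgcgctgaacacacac
Bcan, chr2:175765265-175765564, minus strand: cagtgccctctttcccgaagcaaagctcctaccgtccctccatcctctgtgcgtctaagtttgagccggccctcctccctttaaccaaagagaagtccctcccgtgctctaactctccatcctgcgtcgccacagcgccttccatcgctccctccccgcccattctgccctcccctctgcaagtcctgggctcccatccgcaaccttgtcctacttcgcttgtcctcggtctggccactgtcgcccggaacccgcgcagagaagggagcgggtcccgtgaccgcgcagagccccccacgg
Hapln2, chr2:175794389-175794688, minus strand: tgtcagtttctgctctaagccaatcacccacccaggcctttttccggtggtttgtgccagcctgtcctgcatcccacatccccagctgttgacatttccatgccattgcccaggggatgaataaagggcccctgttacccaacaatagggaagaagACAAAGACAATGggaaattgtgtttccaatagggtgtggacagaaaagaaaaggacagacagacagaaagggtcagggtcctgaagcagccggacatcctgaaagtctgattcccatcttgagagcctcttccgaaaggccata

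The windows were compared by CpG dinucleotides, the sites of DNA methylation. Bcan held 22, Tnc 12, Hapln1 10, Hapln2 3 and Tnr none, where the median of 33469 such windows was 7. Tnc had TATAAA at position -208 from the start site and TATATA at -30, and 17.8% of all windows held either. The TATA letter strings can share bases, but these matches did not. In Hapln2, ACAAAG at -94 was followed directly by ACAATG at -88, and Hapln1 had ACAAAG at -125. Either SOX string was present in 29.1% of all windows. These matches are letters in a window and were not tested for binding. A window was found for 9 of the 10 members, and Vcan had 2.

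Brevican was by far the most abundant of the 10 genes in both tissues. Bcan, a lectican made largely by astrocytes and oligodendrocyte-lineage cells, read 88.4, 85.4, 80.6 and 67.1 FPKM in hippocampus replicates 1 to 4 and 82.3, 110 and 126 FPKM in hypothalamus replicates 1 to 3. Its means were 80.4 ± 9.44 (SD, n = 4) and 106 ± 22.2 (SD, n = 3), and the tissues overlapped, with a rescaled difference of -0.09. Without hypothalamus replicate 1 it was -0.25, and without replicate 1 of both tissues -0.30, each with no overlap and hypothalamus higher. Versican (Vcan), carried by oligodendrocyte precursors and by the matrix of white matter, came next among the lecticans. It read 5.07, 5.42, 5.65 and 5.18 FPKM in hippocampus, with an SD on the log2 scale of 0.06 where the median locus had 0.24. In hypothalamus Vcan read 7.31, 5.14 and 4.10 FPKM, a range that encloses every hippocampus library. The rescaled difference was 0.27. Without hypothalamus replicate 1, the highest library, it was 0.49, and without replicate 1 of both tissues 0.50, each with no overlap and hippocampus higher.

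Aggrecan, the lectican by which nets are most often recognised, was low in both dissections. Acan read 0.687, 1.03, 0.823 and 0.901 FPKM in hippocampus and 1.09, 1.53 and 1.37 FPKM in hypothalamus. As deposited, each hypothalamus library lay above each hippocampus library. After rescaling the tissues overlapped, with a difference of -0.25. Without hypothalamus replicate 1 it was -0.34, with no overlap. Within a library, Bcan stood 74.4 to 129 times as high as Acan in hippocampus and 71.7 to 91.8 times in hypothalamus. In bulk tissue, fewer cells of a type and less RNA per cell cannot be told apart, and a transcript of scattered neurons is diluted by all other cells.

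Neurocan and its genomic neighbour, the link protein gene Hapln4, were at or near 0 throughout. Ncan, a lectican of neurons and astrocytes best known from the developing brain, read 0.110, 0.153, 0.0657 and 0.0661 FPKM in hippocampus. In hypothalamus it was listed at 0.00524 FPKM in replicate 1 and at 0 in replicates 2 and 3. Every hippocampus library was thus above every hypothalamus library, at levels under the minimum for comparison. Hapln4, whose product is found with brevican around inhibitory synapses, read 0.0119, 0.0437, 0.0937 and 0.0754 FPKM in hippocampus. It was listed at 0 in hypothalamus replicates 1 and 2 and at 0.0239 FPKM in replicate 3. The tissues overlapped through hippocampus replicate 1 and did not without it. Each has a second locus, and those of Hapln4 were at 0 in all 7 libraries, while those of Ncan reached at most 0.0383 FPKM.

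Several genes around this pair, but not all, were measured well above that. In the tables, the Ncan loci sit between Rfxank, at 2.23 to 3.83 FPKM in hippocampus and 4.63 to 8.39 FPKM in hypothalamus, and Mau2, at 10.9 to 14.2 and 9.15 to 11.7 FPKM. Sugp1, listed between the Hapln4 loci, read 2.56 to 4.48 and 6.21 to 9.37 FPKM. Tm6sf2, the next protein-coding gene beyond Hapln4, is listed between the Hapln4 loci and again directly after them. Both of its loci were at 0 in every library, as Hapln4 nearly was. In a file without counts, an entry at or near 0 says only what the table lists, and whether the assignment of fragments to loci bears on Ncan and Hapln4 was not tested.

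In both tissues most of the lectican FPKM, with Ncan as listed, was Bcan, and a share within a library does not depend on how libraries were scaled. Bcan took 93.8%, 92.8%, 92.5% and 91.6% of the summed lectican FPKM in hippocampus replicates 1 to 4 and 90.7%, 94.3% and 95.8% in hypothalamus replicates 1 to 3. Vcan followed with 5.38% to 7.08% in hippocampus and 3.11% to 8.06% in hypothalamus, and Acan took between 0.729% and 1.32% in every library. For these 3 genes the ranges of the tissues overlapped, but for Bcan and Vcan only through hypothalamus replicate 1. In the other hypothalamus libraries the Bcan share was above, and the Vcan share below, that of every hippocampus library. The Ncan share was 0.0754% to 0.167% in hippocampus and at most 0.00578% in hypothalamus.

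**Figure D1:**
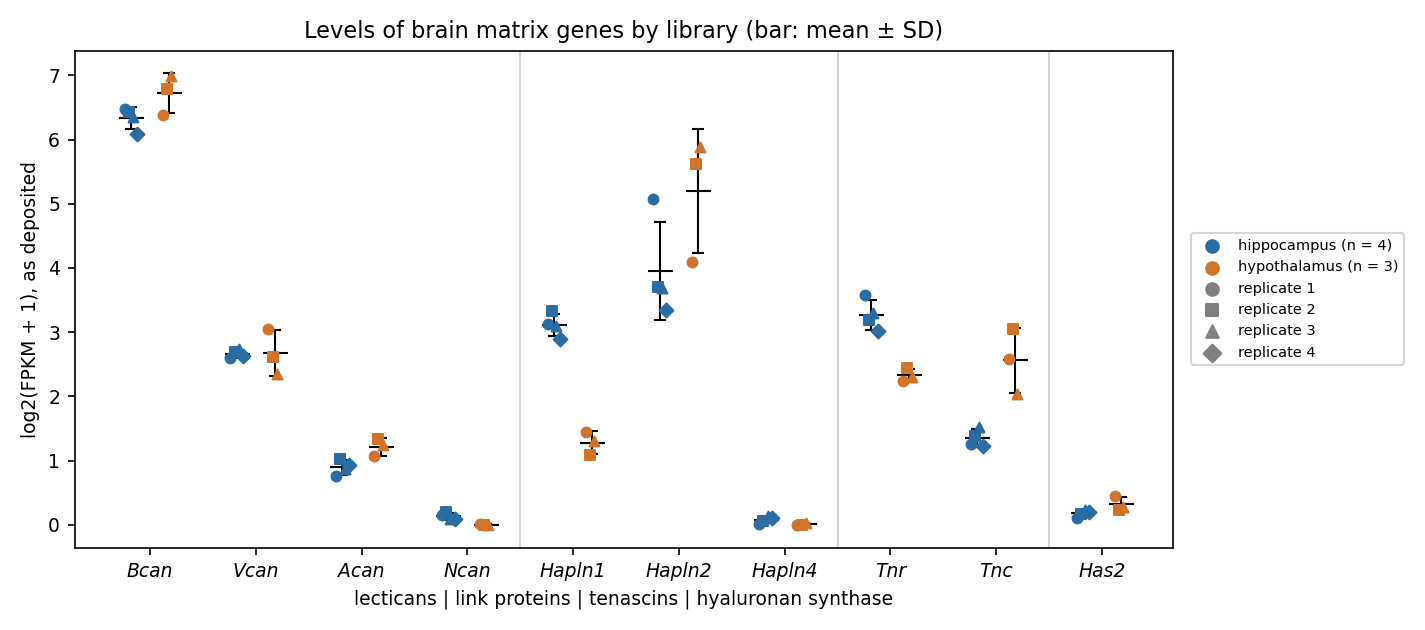
Levels of the 10 genes in log2(FPKM + 1) as deposited, with 1 point per library, blue for hippocampus (n = 4) and orange for hypothalamus (n = 3); bars give mean and SD. Hapln1 and Tnr sit higher in every hippocampus library and Tnc in every hypothalamus library, while the replicate 1 points of Hapln2 lie apart from the rest on opposite sides.

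Among the link proteins, Hapln1 separated the tissues. This gene, made by neurons and needed for nets to condense, read 7.78, 9.01, 7.57 and 6.43 FPKM in hippocampus and 1.71, 1.13 and 1.48 FPKM in hypothalamus. The lowest hippocampus library was thus above the highest hypothalamus library, and the means of 7.70 ± 1.06 (SD, n = 4) and 1.44 ± 0.294 FPKM (SD, n = 3) stood 5.34-fold apart as deposited. The rescaled difference was 2.41, and Hapln1 was called higher in hippocampus under each of the 14 alternatives run on it (1.69 to 2.69). The SD among replicates on the log2 scale was 0.18 in each tissue.

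A second Hapln1 locus was read unevenly, at 0, 1.94, 0 and 8.75 FPKM in hippocampus and at 0.228, 0.854 and 0.611 FPKM in hypothalamus. With both loci summed the difference was 2.34, and the SD on the log2 scale was 0.43 in hippocampus and 0.04 in hypothalamus. Hapln1 lies beside Vcan in the genome, yet the levels of the neighbours did not keep 1 ratio. By the locus with the highest mean, Hapln1 stood at 1.24 to 1.66 times Vcan in hippocampus and at 0.220 to 0.361 times in hypothalamus. Against Bcan, its ratio was 0.0879 to 0.106 in hippocampus and 0.0103 to 0.0208 in hypothalamus, and neither pair of ranges overlapped. These ratios leave out the second Hapln1 locus and were not recomputed with loci summed. In the hippocampus library where that locus read 8.75 FPKM, the locus used read 6.43 FPKM and Vcan 5.18 FPKM. Its ratios would thus be higher with both loci.

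By the loci used, Hapln2 was the most abundant link protein gene. It had the largest SD among replicates of the 10 on the log2(FPKM + 1) scale, in which genes near 0 vary little. It is expressed by oligodendrocytes, and its product holds the matrix at nodes of Ranvier. It read 32.7, 12.1, 11.8 and 9.19 FPKM in hippocampus replicates 1 to 4 and 16.1, 48.4 and 57.9 FPKM in hypothalamus replicates 1 to 3. Replicate 1 was the high library in hippocampus and the low one in hypothalamus, and only through it did the tissues overlap. The SD on the log2 scale was 0.76 and 0.96, where the median locus had 0.24 and 0.25. The difference was -0.99 over all libraries, not called. Without replicate 1 of both tissues it was -1.93, and Hapln2 was then higher in every hypothalamus library. Leaving out only hippocampus replicate 1 gave -1.38 and only hypothalamus replicate 1 gave -1.54, each called.

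Other genes moved with Hapln2 across these libraries in part. The 6 markers of oligodendrocyte precursors summed to 68.2 FPKM in hippocampus replicate 1 against 44.9 to 52.7 in the others, and to 82.6 FPKM in hypothalamus replicate 1 against 119 and 130. Of these 6 genes, 4 were highest in hippocampus replicate 1 and 4 were lowest in hypothalamus replicate 1. The 9 markers of mature oligodendrocytes summed to 4152 FPKM in hippocampus replicate 1, the lowest there, against 4293 to 5057, and to 6199 in hypothalamus replicate 1 against 7630 and 8116. Of the 9, 1 was highest and 4 were lowest in hippocampus replicate 1, 3 were highest and 4 lowest in hypothalamus replicate 1, and none was at 0. Sox10, an oligodendrocyte-lineage transcription factor picked after its values were seen, read 13.2, 6.74, 7.98 and 6.47 FPKM in hippocampus and 13.3, 27.3 and 29.3 FPKM in hypothalamus. Pdgfra and Neu4, of the same list, were neither highest in hippocampus replicate 1 nor lowest in hypothalamus replicate 1. The part of these cells in the result was not tested.

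**Figure D2:**
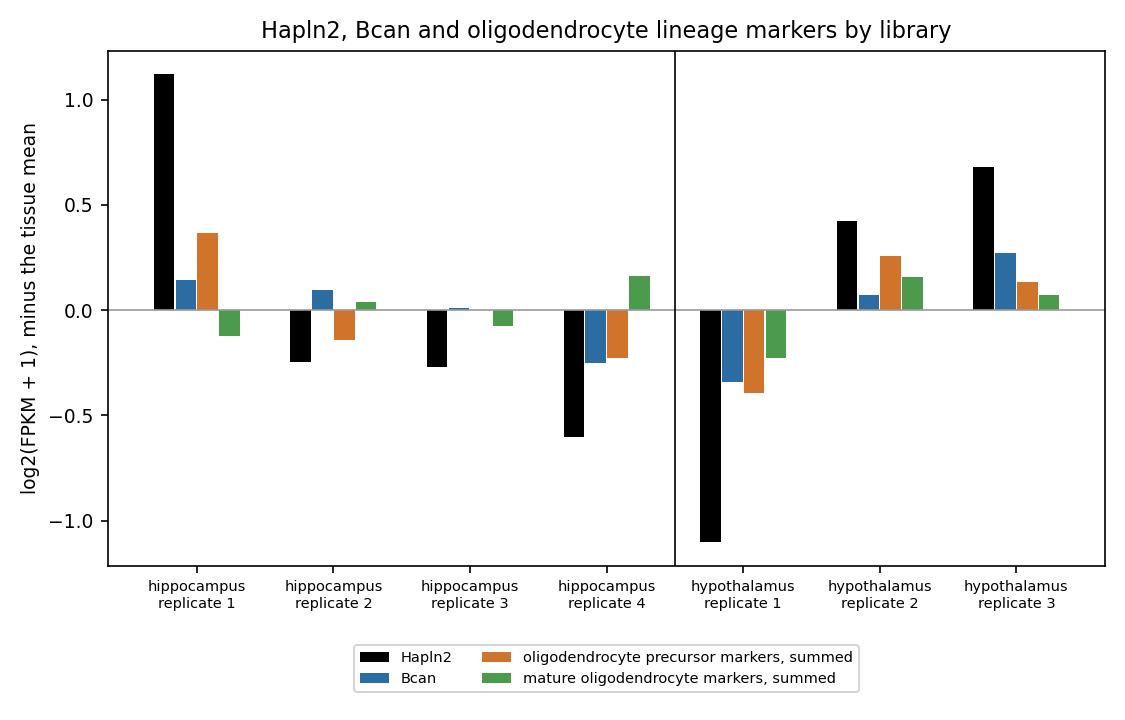
Bars give log2(FPKM + 1) minus the mean of the tissue for Hapln2 (black), its genomic neighbour Bcan (blue) and the summed markers of oligodendrocyte precursors (orange) and of mature oligodendrocytes (green) in each library. Hapln2 departs furthest in replicate 1, upward in hippocampus (32.7 FPKM) and downward in hypothalamus (16.1 FPKM).

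As a share of the 3 link protein genes, Hapln1 took 19.2%, 42.7%, 38.8% and 41.0% in hippocampus and 9.61%, 2.28% and 2.49% in hypothalamus. Hapln2 took nearly all of the rest, 57.1% to 80.7% in hippocampus and 90.4% to 97.7% in hypothalamus. All hippocampus libraries thus had more Hapln1 per link protein transcript than any hypothalamus library, replicate 1 included. These shares use 1 Hapln1 locus. With loci summed, the mean share in hippocampus was 41.9% in place of 35.4% for Hapln1 and 57.8% in place of 64.3% for Hapln2. In hippocampus replicate 4 the 2 Hapln1 loci, at 6.43 and 8.75 FPKM, were together above Hapln2 at 9.19 FPKM.

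The tenascins separated the tissues in opposite directions. Tnr encodes tenascin-R, which crosslinks lecticans and is made by oligodendrocytes and some interneurons. It read 10.9, 8.09, 8.82 and 7.09 FPKM in hippocampus and 3.72, 4.43 and 3.90 FPKM in hypothalamus. Every hippocampus library was higher, with means of 8.74 ± 1.63 (SD, n = 4) and 4.02 ± 0.370 FPKM (SD, n = 3) and a rescaled difference of 1.32. As deposited the means stood 2.17-fold apart with no overlap, but on the log2(FPKM + 1) scale the difference was 0.94, just under the threshold of the call. Tnr also has a second hippocampal locus, which read 0, 10.2, 5.18 and 15.5 FPKM, and with both summed the difference was 2.13. The hypothalamus table lists 1 locus.

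Tnc encodes tenascin-C, a protein of astrocytes and of germinal and reactive tissue. It read 1.40, 1.61, 1.88 and 1.34 FPKM in hippocampus and 4.99, 7.29 and 3.12 FPKM in hypothalamus. Every hypothalamus library was higher, with means of 1.56 ± 0.248 (SD, n = 4) and 5.13 ± 2.09 FPKM (SD, n = 3), 3.29-fold apart as deposited. The rescaled difference was -1.19. Without hypothalamus replicate 2, the highest library, it was -0.90 on the log2(value + 1) scale and no longer called, although the tissues still did not overlap. A pseudocount of 5 gave -0.81, also not called.

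Markers of meningeal fibroblasts varied in the same order as Tnc over the hypothalamus libraries. The 8 genes of that list summed to 202, 432 and 79.2 FPKM in hypothalamus replicates 1 to 3 and to 84.0, 32.3, 274 and 98.3 FPKM in hippocampus replicates 1 to 4, and 1 of them, Col1a2, was at 0 in every library. In hippocampus both were highest in replicate 3, but the orders otherwise differed, with Tnc second highest in replicate 2, where the list was lowest. The list itself overlapped between the tissues. Of 8 astrocyte markers, 3 were called higher in hypothalamus and 1 in hippocampus, where 13.4% and 14.5% of all symbols were, and their summed levels of 2237 to 2516 FPKM in hippocampus and 2229 to 2910 FPKM in hypothalamus overlapped. The part of either cell type in the Tnc values was not tested.

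Within each hippocampus library Tnr exceeded Tnc 4.68-fold to 7.84-fold, and 7.44-fold to 16.9-fold with the Tnr loci summed. In hypothalamus the ratio of Tnr to Tnc was 0.746, 0.608 and 1.25, so that Tnc was the higher in replicates 1 and 2 and Tnr in replicate 3. Tnr made up 82.4% to 88.7% of tenascin FPKM in hippocampus and 37.8% to 55.6% in hypothalamus. With loci summed, the mean share of Tnc in hippocampus was 9.22% in place of 15.4%. These shares are free of the scaling between libraries, and the gap between the tissues was larger than the spread in either (SD 2.79 and 9.17 percentage points).

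**Figure D3:**
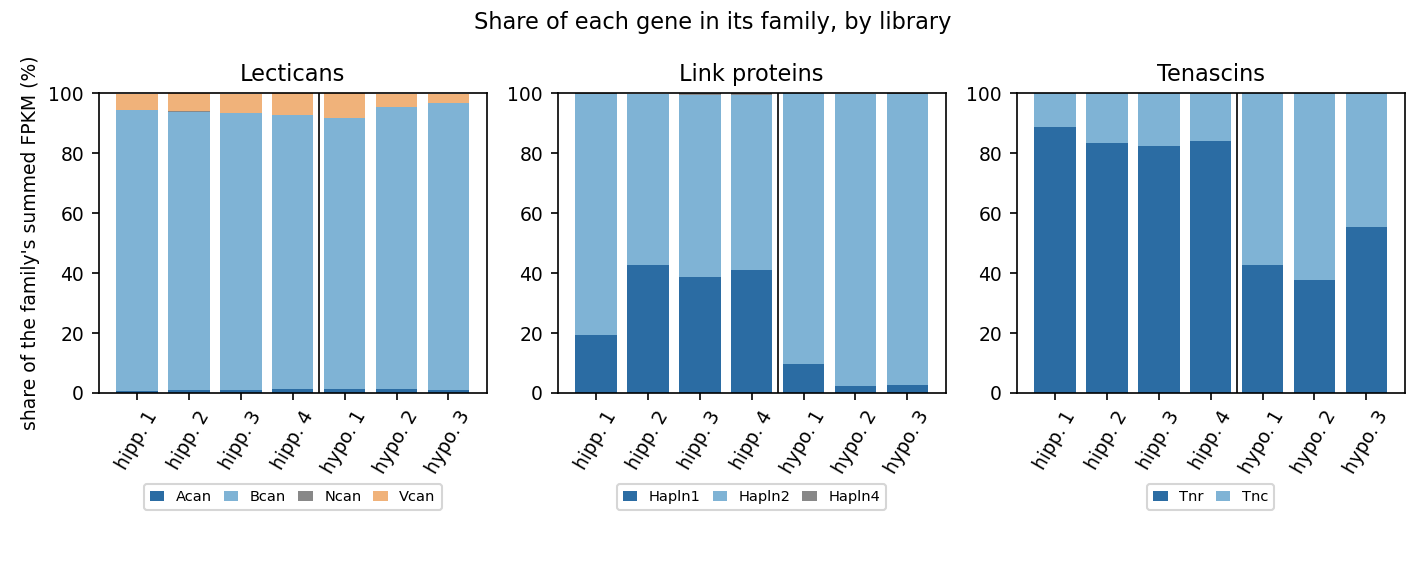
Stacked bars give the percent of each gene in the summed FPKM of its family for each library, with hippocampus replicates 1 to 4 left of the line and hypothalamus replicates 1 to 3 right of it. With Ncan as listed, Bcan fills over 90% of the lecticans everywhere, whereas Hapln1 and Tnr take larger shares in all hippocampus libraries.

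Has2, one of the enzymes that spin hyaluronan at the cell surface, was barely detected. It read 0.0758, 0.128, 0.171 and 0.149 FPKM in hippocampus and 0.369, 0.167 and 0.209 FPKM in hypothalamus, and the tissues overlapped. A second hypothalamic locus read 0.508 FPKM in replicate 1 and 0 in the others. The other synthases were also low, with Has1 at 0.939 ± 0.426 (SD, n = 4) and 0.899 ± 0.270 FPKM (SD, n = 3) and Has3 at 0.274 ± 0.110 and 0.182 ± 0.143 FPKM.

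Genes were ranked by their highest-mean locus, and no order was made with loci summed. In hippocampus the second Tnr locus averaged 7.71 FPKM beside 8.74, and the second Hapln1 locus 2.67 FPKM beside 7.70. The places of Hapln2, Tnr and Hapln1 there thus depend on the locus choice. Set in order of level, hippocampus ran Bcan, Hapln2, Tnr, Hapln1, Vcan, Tnc, Acan, Has2, Ncan and Hapln4. Of these neighbours, Hapln2 and Tnr, Tnr and Hapln1, Has2 and Ncan, and Ncan and Hapln4 overlapped in their ranges over libraries. Hypothalamus ran Bcan, Hapln2, Vcan, Tnc, Tnr, Hapln1, Acan, Has2, Hapln4 and Ncan. There Vcan and Tnc, Tnc and Tnr, Hapln1 and Acan, and Hapln4 and Ncan overlapped. Between the orders, Hapln1 and Tnr stood 2 places higher in hippocampus, Vcan and Tnc 2 places higher in hypothalamus, and Ncan and Hapln4 changed places.

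Of the 7 genes compared, 3 had no overlap between the tissues, where 52.6% of all 10736 compared symbols had none (28.2% towards hippocampus and 24.4% towards hypothalamus). By the call, 2 were called higher in hippocampus, where 14.5% of all symbols were, and 1 in hypothalamus, where 13.4% were. In either direction 27.9% of all symbols were called, so a count of 3 among 7 genes does not set the group apart. The median difference of the 7 was -0.09, and that of all symbols 0.05. Hippocampus took 52.0% of all calls after rescaling and 33.8% with FPKM as deposited, when the median of all symbols moved to -0.21.

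**Figure D4:**
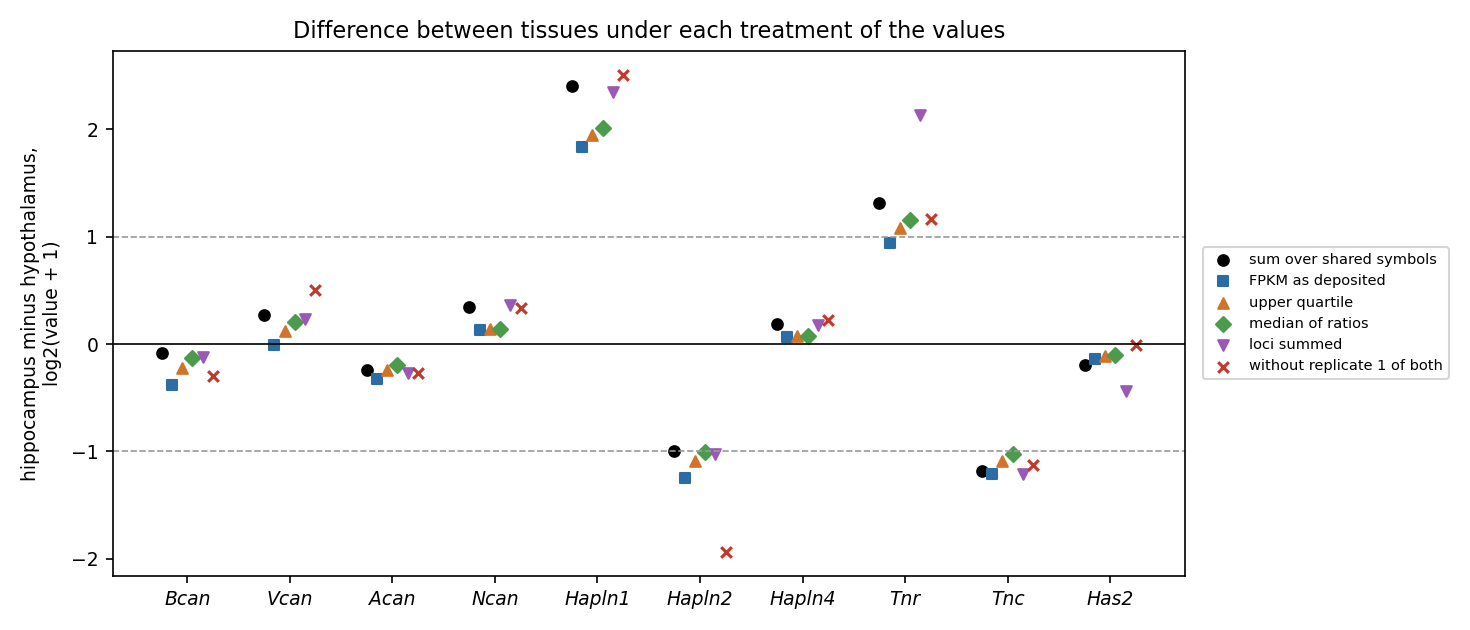
Points give the difference between the tissues (hippocampus minus hypothalamus, log2(value + 1)) for each gene under 6 treatments of the values, and dashed lines mark 2-fold. Hapln1 stays above the upper line, Tnr lies just under it with FPKM as deposited (0.94), and Hapln2 moves from -0.99 to -1.93 without replicate 1 of both tissues.

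Genes whose values over the 7 libraries ran closest to those of the called members were sought among symbols with 1 locus in each table and an average of 5 FPKM or more in either tissue, of which there were 6938 for Hapln1 and Tnr. The measure was the root mean square difference of rescaled log2 values, centred per gene. For Hapln1 the closest were Camkv (0.14) and Camkk1 (0.16), for Tnr Bud31 (0.10) and Plcd3 (0.12), and for Tnc Cd48 (0.17) and Igf1 (0.18). Camkv read 274 ± 38.5 FPKM over the 4 hippocampus libraries (mean ± SD) against 56.3 ± 8.35 FPKM over the 3 of hypothalamus. Igf1 read 1.82 ± 0.385 and 5.84 ± 1.81 FPKM.

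The wider matrix pathway was examined through 6 lists of genes that make, modify, cut or bind these proteins. Of 73 genes listed, 62 were found in both tables and 54 were compared. Of these, 7 were called higher in hippocampus and 7 in hypothalamus, close to the 14.5% and 13.4% of all symbols. Without replicate 1 of both tissues, 13 were called higher in hippocampus and 8 in hypothalamus, while calls over all symbols went from 1560 to 1944 and from 1439 to 1709. The gene added in hypothalamus was Nptx2, which encodes another pentraxin, with a difference of -1.01 in place of -0.59. The 6 added in hippocampus were B3galt6, Csgalnact1, Hmmr, Nptx1, Tmem2 and Tnfaip6. All 7 were named after their values were seen. Nptx1, which encodes a neuronal pentraxin, read 0.493 FPKM in hippocampus replicate 1 against 108 to 197 FPKM in the others and 14.5 to 17.5 FPKM in hypothalamus, and its difference went from 1.63 to 3.45. Without hypothalamus replicate 1 alone, 12 were called higher in hippocampus, where all symbols gave 1816, with Cntn1 in place of Csgalnact1 and Nptx1 among those added.

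Genes for hyaluronan itself gave no call among 6 compared, where 27.9% of all symbols were called in either direction. Hyal2, which encodes a hyaluronidase, came nearest towards hypothalamus, with 8.58 ± 2.08 FPKM over the 4 hippocampus libraries (mean ± SD) against 18.7 ± 0.480 FPKM over the 3 of hypothalamus, no overlap and a difference of -0.83. Tmem2, which encodes another hyaluronan-cutting protein, had the largest towards hippocampus, at 2.88 ± 0.357 and 1.67 ± 0.428 FPKM. The 10 compared genes for linkage and polymerization of chondroitin chains gave no call either, although 4 of them, among them B3gat3 at 160 ± 26.5 and 101 ± 30.6 FPKM, were higher in every hippocampus library after rescaling, where 28.2% of all symbols were. The largest difference there, 1.46 for B3galt6, belonged to a gene whose tissues overlapped through replicate 1.

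Sulfation of the chains, which sets what the matrix binds, gave 2 calls among 9 genes, 1 in each direction, where 27.9% of all symbols were called in either. Chst15, which adds the second sulfate of the chondroitin-E unit, read 7.11 to 12.6 FPKM over the hippocampus libraries and 2.55 to 5.57 FPKM over those of hypothalamus, a difference of 1.58. Chst12, a 4-O-sulfotransferase, read 5.25 to 8.59 and 17.0 to 30.4 FPKM, a difference of -1.36. Both calls held under each of 14 alternatives. Chst11, the other main enzyme of that position, was not called, at 18.3 ± 3.63 and 16.6 ± 0.877 FPKM and a difference of 0.41 after rescaling.

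Among proteases and inhibitors, 11 were compared, and 3 were called higher in hypothalamus and 1 in hippocampus, where 13.4% and 14.5% of all symbols were. The 3 were tissue inhibitors of metalloproteinases, and the other such gene, Timp3, overlapped. Timp2 read 86.5 ± 21.2 FPKM over the 4 hippocampus libraries (mean ± SD) against 372 ± 45.4 FPKM over the 3 of hypothalamus, Timp4 read 8.96 ± 1.26 and 59.9 ± 6.21 FPKM, and Timp1 read 3.04 ± 2.17 and 20.9 ± 9.12 FPKM. These calls held under each of 14 alternatives. The Timp2 difference, -1.83 in the main setting, ranged from -2.12 to -1.04 over them, the last only just past 2-fold. Timp2 has 2 loci in hippocampus and 1 in hypothalamus. Timp1 was highest in hippocampus replicate 3 (6.21 FPKM) and hypothalamus replicate 2 (30.9 FPKM), the libraries where the meningeal list was highest, and the part of those cells was not tested. Mmp9, a gelatinase gene, was called the other way, at 1.33 ± 0.474 and 0.103 ± 0.0444 FPKM, but not with a pseudocount of 5. Adamts4, whose product cuts lecticans, overlapped at 7.68 ± 0.868 and 9.19 ± 1.63 FPKM.

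Receptors and partners gave 4 calls towards hippocampus and 2 towards hypothalamus among 11 compared, where 14.5% and 13.4% of all symbols were called. Those towards hippocampus were the Nogo receptor genes Rtn4r, Rtn4rl1 and Rtn4rl2 and the co-receptor gene Lingo1. Rtn4r read 29.1 ± 3.33 FPKM over the 4 hippocampus libraries (mean ± SD) against 8.54 ± 1.03 FPKM over the 3 of hypothalamus. Rtn4rl2 read 17.2 to 18.3 FPKM over the hippocampus libraries, and in hypothalamus 0.102 FPKM in replicate 1 with 0 listed in replicates 2 and 3. Towards hypothalamus, Ptprf, a receptor phosphatase gene, read 11.3 ± 2.36 and 41.1 ± 6.14 FPKM, and Ngfr read 0.420 ± 0.0879 and 2.61 ± 0.439 FPKM. The Ngfr call was lost with a pseudocount of 5. Ptprs, a related phosphatase gene whose product binds chondroitin sulfate, read 94.6 ± 9.88 and 88.9 ± 9.94 FPKM and was not called, with a rescaled difference of 0.39.

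Other brain proteoglycans gave 1 call each way among 7, a share close to the 14.5% and 13.4% of all symbols. Spock1, which encodes testican-1, read 173 ± 36.2 FPKM over the 4 hippocampus libraries (mean ± SD) against 64.9 ± 37.8 FPKM over the 3 of hypothalamus. With its loci summed the difference went from 1.83 to 0.78 and the call was lost. Smoc1 read 2.91 to 6.28 and 16.4 to 19.9 FPKM. Ptprz1, which encodes phosphacan, a partner of tenascins, read 29.5 ± 6.11 and 50.1 ± 10.6 FPKM, with no overlap as deposited, but overlapped after rescaling, with a difference of -0.46.

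**Figure D5:**
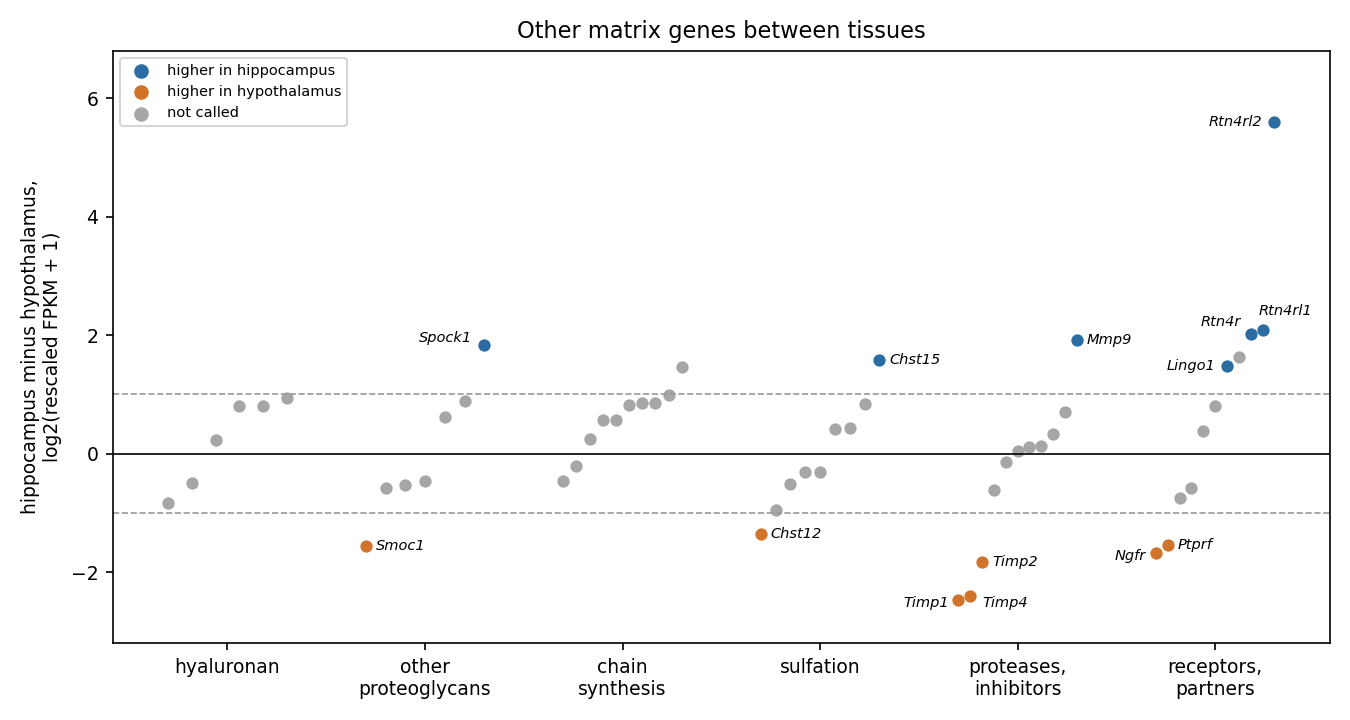
Each point is 1 compared gene of the 6 matrix lists, placed by its difference between tissues (hippocampus minus hypothalamus, log2(rescaled FPKM + 1)), and dashed lines mark 2-fold. Called genes are named, 7 higher in hippocampus (blue) and 7 in hypothalamus (orange), with the Nogo receptor genes at the upper right and the Timp genes below.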

How the data were processed

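RNA sequencing of 4 hippocampus and 3 hypothalamus libraries was analysed. Poly-A selected RNA, per the labels' protocols, was fragmented, reverse transcribed with random primers, sequenced on a HiSeq 2000 and demultiplexed with CASAVA 1.8.2. The authors deposited FPKM, 1 table per tissue, each value followed by a status word. Per the submitters' processing notes, TopHat, TopHat2, Bowtie, Bowtie2, Cufflinks and Cuffdiff and the build rn5 were used. Annotation, strand setting and normalization are not given in the sources used here.

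Loci not marked OK in every analysed library of a table (86 in hippocampus, 24 in hypothalamus) were left out. The highest-mean locus was taken per symbol, and symbols were joined across tables. Libraries were rescaled to a sum of 1000000 over shared symbols, with a pseudocount of 1. Symbols had to average 1 FPKM or more in either tissue. The call (no overlap, at least 2-fold) was checked on simulated data. No test was run across the tables, which were quantified separately as far as their locus numbers show. Shares and ratios were taken within libraries. Alternatives were pseudocounts of 0.1 and 5, FPKM as deposited, upper-quartile and median-of-ratios scaling, summed loci, other filters and leaving out libraries. Named genes were the members, called genes and up to 3 genes with the largest difference per list, and the 2 closest genes per called member, with others named for their role beside a member. The members and lists were chosen with earlier results of these data known.

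Absolute depth is unknown. Low values shared a common step in pairs without replicate 1, where 20.2% to 25.7% of low loci lay at 1 ratio, against at most 3.89% in pairs with it. In hippocampus, the step of replicate 2 was 1.52 times that of replicate 3. RefSeq windows (GRCr8) and gene order served for sequences and neighbours. Python 3.11.15, pandas 2.3.3 and numpy 2.4.6 were used.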

Additional observations from a re-analysis of the deposited data

Results flagged for a closer look

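Of 29 sets of 4 hippocampus values examined (levels, family shares and marker lists), 3 held a library whose gap to the nearest other library took a larger part of the whole range than Dixon's 95% limit for 4 values, where chance gives about 1 in 20. All 3 are the same library and rest on Hapln2. Hapln2 read 32.7 FPKM in hippocampus replicate 1 against 9.19 to 12.1 FPKM in the others, a ratio of 0.88. Its share of link protein FPKM was 80.7% there against 57.1% to 60.7%, a ratio of 0.85, and that of Hapln1 was 19.2% against 38.8% to 42.7%, a ratio of 0.84. The shares are not independent of each other or of the Hapln2 level. Both also rest on the use of 1 Hapln1 locus. A second locus read 0, 1.94, 0 and 8.75 FPKM in hippocampus replicates 1 to 4. With loci summed the Hapln1 share averaged 41.9% in place of 35.4%. Dixon's ratio was not recomputed for the summed shares, so these 2 flags hold for the single locus only.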

How the results depend on the processing

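No direction of a called member reversed under any of the 14 alternatives. Hapln1 was called under all 14, Tnr under 13 and Tnc under 12. With FPKM as deposited, 1 member was called higher in hippocampus in place of 2, since the Tnr difference was 0.94 on the log2(FPKM + 1) scale, and 928 symbols in place of 1560 were higher in hippocampus. With a pseudocount of 5, 0 members were called higher in hypothalamus in place of 1, while calls over all symbols went from 1439 to 981. Without replicate 1 of both tissues, 2 members were called higher in hypothalamus (Hapln2 added) and 13 pathway genes in place of 7 in hippocampus, while calls over all symbols also went up, to 1709 in hypothalamus and 1944 in hippocampus. Leaving out each library in turn gave 0 to 2 members higher in hypothalamus, lowest without hypothalamus replicate 2 and highest without replicate 1 of either tissue, and 7 to 12 pathway genes higher in hippocampus, highest without hypothalamus replicate 1. Differences of the members stayed within the replicate SD in 115 recomputations and moved past it in 25. No paired analysis was possible because the difference between tissues comes from no test and nothing ties replicate numbers to animals. The planned replicate block was therefore not run. The cause of these shifts was not tested. Absolute depth is unknown, and Ncan, Hapln4 and Has2 were under the minimum for comparison.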

Other observations

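Parvalbumin interneurons are the cells that most often carry nets, and the list of their markers here also holds genes of all GABA neurons. Pvalb read 57.3, 37.4, 43.3 and 27.4 FPKM in hippocampus and 72.0, 102 and 32.6 FPKM in hypothalamus, so the tissues overlapped. Kcnc1 and Syt2, also typical of fast-spiking cells, overlapped too. Of the 10 compared genes of the list, 1 had no overlap towards hippocampus and 4 towards hypothalamus (Sox6, Gad1, Gad2 and Slc32a1), where 28.2% and 24.4% of all symbols had none. Kcnc2, a potassium channel gene, was called higher in hippocampus, at 24.4 ± 6.06 FPKM (SD, n = 4) against 12.2 ± 4.41 FPKM (SD, n = 3). Gad2, a GABA synthesis gene of all inhibitory neurons, was called higher in hypothalamus, at 171 ± 28.7 FPKM against 40.7 ± 2.97 FPKM in hippocampus. Gad1 and Slc32a1, likewise genes of all inhibitory neurons, had no overlap but were not called. As deposited, the list summed to 238 to 283 FPKM in hippocampus and 498 to 532 FPKM in hypothalamus. That sum includes Gad2, Gad1 (means of 70.3 and 128 FPKM) and Slc32a1 (36.1 and 77.7 FPKM). It is thus not a level of net-bearing cells alone.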
